A study of Homo sapiens with 9 samples.

Results

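The 8 genes PSMB8, PSMB9, PSMB10, PSME1, PSME2, ERAP1, ERAP2 and NLRC5 were read together as the inducible peptide-producing machinery of antigen presentation, together with its dedicated transcriptional activator. Each symbol had 1 gene identifier in the deposited table, so 8 of 62710 identifiers were described. They were taken by symbol, a rule that itself uses no measured value. RNA was measured in HT-29, an established human colorectal adenocarcinoma cell line of wild-type genotype, in 9 libraries. There were 3 libraries of cells left without stimulation, 3 of cells given flagellin at 500 ng/mL and 3 of cells given ADP-heptose at 500 ng/mL, with RNA taken after 2.5 h. Flagellin is the bacterial protein that TLR5 detects, and ADP-heptose is the bacterial sugar nucleotide that ALPK1 detects. The study used flagellin as a second activator of NF-kB next to ADP-heptose. All libraries came from 1 cell line and 1 time point, and the study speaks of 3 independent experiments, so later changes were outside the measurement. The total count per library ran from 30770448 to 38304035 in the non-stimulated and flagellin groups and from 50054773 to 58272772 in the ADP-heptose group.

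Most peptides shown on MHC class I are cut from proteins by the 20S proteasome. Its constitutive catalytic subunits PSMB5, PSMB6 and PSMB7 can be replaced during assembly by PSMB8 (LMP7), PSMB9 (LMP2) and PSMB10 (MECL-1), which gives the immunoproteasome. PSME1 and PSME2 are the alpha and beta chains of the PA28 activator ring that caps the core. ERAP1 and ERAP2 are aminopeptidases of the endoplasmic reticulum that trim peptides at their amino end after TAP transport. NLRC5 is a nuclear activator of class I genes that reaches DNA through the RFX complex and its partners. Interferon gamma is the best known inducer of all of these, acting in part through IRF1, and NF-kB also acts on part of the class I pathway.

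Promoter sequence from RefSeq (GRCh38.p14) was on hand for 7 of the 8 genes, and none was on hand for NLRC5. Each window ran from 250 bases before a transcription start to 50 bases after it, and PSMB8, ERAP1 and ERAP2 had 2 windows each. The sequences below are shown because an interferon regulatory factor (IRF) core repeat, GAAA followed by any 2 bases and GAAA again on either strand, was present in 6 of the 7 genes. The same letters were found in 3.57% of all 35116 windows and in 4.38% of the 27305 genes with a window. Each line starts 90 bases before the start, is 120 bases long and reads along the gene's strand, with the repeat in capitals. Where a gene had 2 windows the line comes from the window with the match, which was the one farther downstream in all 3 such genes. PSMB9 is printed last, without capitals, since its window had no match.
PSMB8 (chr6:32844018-32844137, minus strand): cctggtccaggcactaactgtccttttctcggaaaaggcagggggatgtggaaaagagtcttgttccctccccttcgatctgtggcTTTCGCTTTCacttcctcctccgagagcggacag
PSMB10 (chr16:67936821-67936940, minus strand): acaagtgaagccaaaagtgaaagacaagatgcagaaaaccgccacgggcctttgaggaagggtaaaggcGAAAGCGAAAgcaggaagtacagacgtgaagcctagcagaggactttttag
PSME1 (chr14:24136104-24136223, plus strand): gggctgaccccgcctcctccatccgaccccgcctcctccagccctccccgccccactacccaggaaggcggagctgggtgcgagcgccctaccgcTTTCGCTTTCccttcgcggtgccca
PSME2 (chr14:24146581-24146700, minus strand): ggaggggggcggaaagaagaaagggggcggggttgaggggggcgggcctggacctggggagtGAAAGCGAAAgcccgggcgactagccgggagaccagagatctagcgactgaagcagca
ERAP1 (chr5:96807916-96808035, minus strand): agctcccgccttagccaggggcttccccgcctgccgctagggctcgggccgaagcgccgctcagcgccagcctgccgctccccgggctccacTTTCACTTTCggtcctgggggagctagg
ERAP2 (chr5:96876410-96876529, plus strand): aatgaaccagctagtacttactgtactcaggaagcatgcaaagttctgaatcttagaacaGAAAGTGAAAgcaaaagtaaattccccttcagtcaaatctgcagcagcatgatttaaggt
PSMB9 (chr6:32854102-32854221, plus strand): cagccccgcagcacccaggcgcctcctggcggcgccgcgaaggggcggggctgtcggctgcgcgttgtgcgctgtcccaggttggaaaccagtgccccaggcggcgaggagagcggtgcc

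The matches lay close to the start, between 30 bases before it in ERAP2 and 5 bases after it in PSME1. PSMB9 shares its upstream region with TAP1, the transporter subunit gene that is read in the opposite direction, and the RefSeq starts of both genes lie 488 bases apart. The TAP1 window held overlapping copies of the repeat and an NF-kB consensus in this shared region, with their near ends 354 and 416 bases before the PSMB9 start. The stretch below shows them in capitals, on the TAP1 strand, from 150 to 31 bases before the TAP1 start.
TAP1 upstream stretch (chr6:32853735-32853854, minus strand): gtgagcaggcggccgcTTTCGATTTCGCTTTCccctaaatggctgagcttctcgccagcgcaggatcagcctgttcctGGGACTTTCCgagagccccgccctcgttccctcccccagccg

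The other motifs searched were less regular among the 7 genes. The NF-kB consensus, named here without its letters, was in 1 of them (ERAP1, 73 bases before the start) and in 13.3% of all genes. The CCAAT box was in PSMB9 and ERAP1, 2 of 7, against 39.7% of all genes. The GC box (GGGCGG) was in PSMB8, PSMB9, PSME1 and PSME2, 4 of 7, against 48.3%. Both strands were searched and matches could overlap each other. A match is a description of letters and does not show that a factor binds there.

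Levels between genes were compared per length, as CPM (counts scaled to the library size) per kilobase of exon. The order of the genes therefore depends on the lengths used, the merged exons of all annotated transcripts of a gene. In non-stimulated cells PSME1 was highest at 46.8 ± 2.78 (SD, n = 3), followed by PSME2 at 11.0 ± 0.721 and ERAP2 at 8.27 ± 0.160. ERAP1 at 2.81 ± 0.141, PSMB10 at 2.53 ± 0.125 and PSMB8 at 2.05 ± 0.146 lay close together. NLRC5 was at 0.313 ± 0.0299 and PSMB9 was lowest at 0.0583 ± 0.0124. The ranges of neighbours in this order did not overlap in non-stimulated cells. With ADP-heptose the order became PSMB10, ERAP1 and PSMB8 in this middle range, where neighbours overlapped, and NLRC5 overlapped with PSMB9. On the same scale PSMB5, PSMB6 and PSMB7, the constitutive catalytic subunits, stood at 69.1 ± 3.44, 55.2 ± 5.74 and 88.2 ± 6.38 in non-stimulated cells. The non-stimulated HT-29 cells thus carried far more RNA of the constitutive subunits than of their inducible counterparts. In RNA of a whole culture, fewer cells expressing a gene and less RNA per cell cannot be told apart.

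ADP-heptose raised 4 of the 8 genes: PSMB9, PSMB8, PSME2 and ERAP1 were higher than in non-stimulated cells at an adjusted p under 0.05, and none was lower. PSMB9 rose about 4-fold from a level near the limit of detection, while PSMB8, PSME2 and ERAP1 rose by less than 1.5-fold. PSMB10 and PSME1 did not pass the test, and neither did ERAP2 and NLRC5, whose means were lower. Over all 17412 genes tested, 7.48% were called higher and 4.42% lower in this comparison. The median log2 fold change of the 8 genes was 0.41, against 0.01 over all genes tested. All tests of single genes come from edgeR's quasi-likelihood test with Benjamini-Hochberg adjustment over all genes tested. In 5 of the 8 genes every ADP-heptose library was above every non-stimulated library, which held for 15.4% of all genes tested. These were the 4 genes that passed and PSMB10. With only the 6 libraries compared in the fit, or with library totals as the scaling, PSMB9 alone still passed (adjusted p = 0.0149 and 0.0190). Without non-stimulated replicate 1 none passed, PSMB9 coming nearest at 0.0708. None passed without non-stimulated replicate 3 either, where ERAP1 came nearest at 0.0583, before PSMB9 at 0.0678.

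Flagellin passed the test for none of the 8 genes against non-stimulated cells, where edgeR called 0.368% of all genes higher. At an unadjusted p under 0.05 there was 1 of the 8, PSMB9, against 3.78% of all genes, and DESeq2 called none. PSMB9 was also the 1 gene of the 8 whose flagellin libraries were all above the non-stimulated libraries, a pattern seen in 7.66% of all genes. The median log2 fold change of the 8 genes was 0.04. Both comparisons use the same non-stimulated libraries.

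Set directly against flagellin, ADP-heptose gave a higher level of 1 gene, PSME2, where 5.4% of all genes were called higher. PSME1 and PSME2 were the 2 genes whose ADP-heptose libraries were all above the flagellin libraries, against 14.2% of all genes. The median log2 difference of the 8 genes was 0.29. A gene that passed against non-stimulated cells under ADP-heptose but not under flagellin was therefore not shown to differ between the stimuli, except for PSME2. That call was lost with only the 6 libraries compared in the fit (adjusted p = 0.0839) and without each flagellin library in turn (0.0563 to 0.114).

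**Figure D1:**
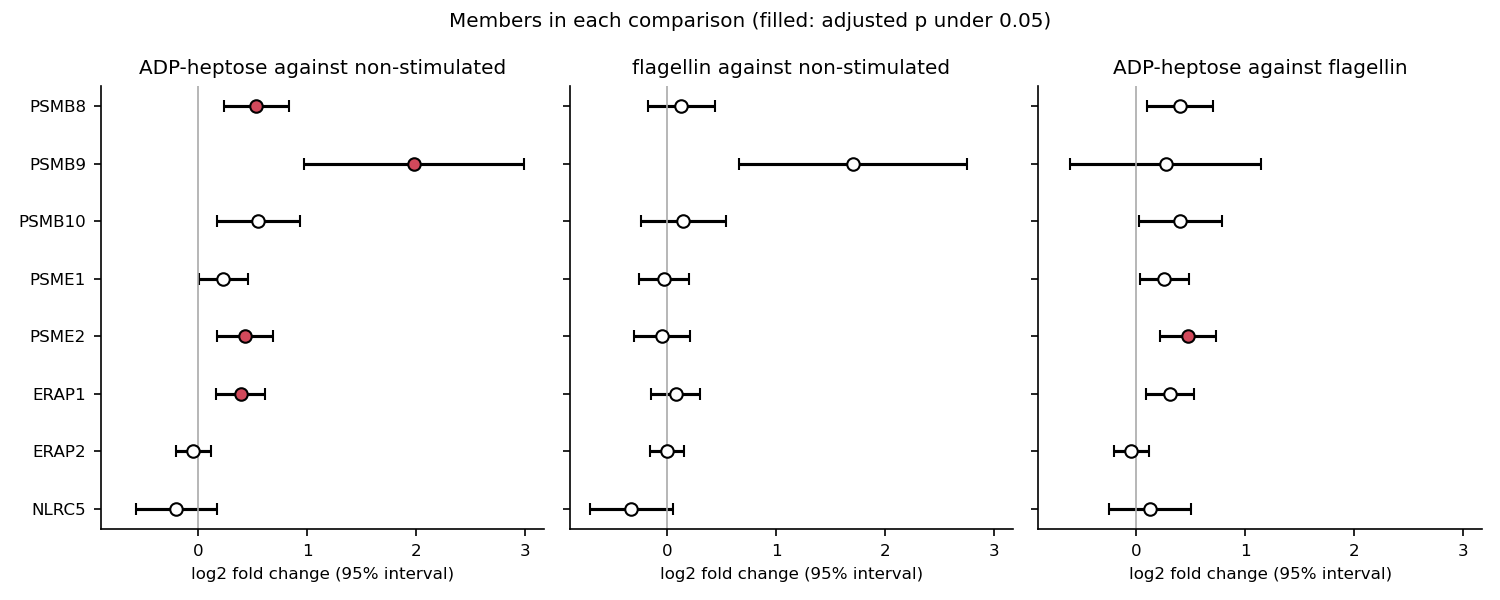
The log2 fold change of each gene with its 95% interval in the 3 comparisons (filled points: adjusted p under 0.05). PSMB9 has the highest estimates and the widest intervals against non-stimulated cells, and PSME2 is the filled point in the comparison of both stimuli.

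PSMB9 encodes the inducible subunit that takes the place of PSMB6. Its raw counts were 6, 8 and 6 in non-stimulated cells, 33, 10 and 20 with flagellin and 25, 43 and 39 with ADP-heptose. As normalised read counts, that is counts corrected for effective library size, these were 6.19, 8.98 and 6.49 without stimulation. They were 34.1, 11.4 and 25.5 with flagellin and 20.8, 30.7 and 34.7 with ADP-heptose. Every stimulated library was above every non-stimulated library, while both stimulated groups overlapped. The log2 fold change was 1.98 ± 0.46 (SE, n = 3 per group, adjusted p = 0.0148) for ADP-heptose, a 3.94-fold rise with a 95% interval from 1.96 to 7.96. For flagellin it was 1.71 ± 0.48 (adjusted p = 0.484). The difference between both stimuli was 0.27 on the log2 scale, with an interval from -0.61 to 1.15, so a difference of either sign was not resolved at this depth. Flagellin replicate 2 was the lowest stimulated library, and without it the log2 difference was -0.06.

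PSMB8 encodes the counterpart of PSMB5. Its normalised read counts were 237, 268 and 238 in non-stimulated cells, 308, 251 and 253 with flagellin and 305, 358 and 412 with ADP-heptose. The ADP-heptose libraries were all above the non-stimulated ones, and flagellin replicate 1 lay among the ADP-heptose values. Its log2 fold change was 0.53 ± 0.14 (SE, adjusted p = 0.0255) for ADP-heptose and 0.13 ± 0.14 (adjusted p = 1) for flagellin.

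PSMB10, the counterpart of PSMB7, had normalised read counts of 195, 194 and 178 in non-stimulated cells and 256, 199 and 171 with flagellin. With ADP-heptose they were 242, 247 and 343, all above the non-stimulated values. A log2 fold change of 0.55 ± 0.18 (SE) did not pass (adjusted p = 0.0638), although its size was that of PSMB8. DESeq2 on the same libraries gave an adjusted p of 0.0267. The value rested in part on ADP-heptose replicate 3, without which it was 0.38.

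PSME1 was the most abundant of the 8 genes per length, and its normalised read counts were 3170, 3567 and 3331 in non-stimulated cells. With flagellin they were 3094, 3381 and 3385, and with ADP-heptose 3684, 3462 and 4656. Replicate 3 of ADP-heptose stood above the other libraries. Replicate 1 also lay above the non-stimulated group, while replicate 2 lay within its range. On the log2 scale the change was 0.23 ± 0.10 (SE, adjusted p = 0.195) with ADP-heptose and 0.09 without that library.

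PSME2, its partner in the PA28 ring, had normalised read counts of 1533, 1710 and 1527 in non-stimulated cells and 1620, 1438 and 1545 with flagellin. With ADP-heptose they were 1917, 1880 and 2603, and no library of this group overlapped with either other group. Against non-stimulated cells the log2 fold change was 0.42 ± 0.12 (SE, adjusted p = 0.0365), and the log2 difference from flagellin was 0.47 ± 0.12 (adjusted p = 0.0270). Without ADP-heptose replicate 3 these were 0.26 and 0.32, and both still passed (adjusted p = 0.00434 and 0.000707).

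ERAP1 had normalised read counts of 873, 876 and 952 in non-stimulated cells and 943, 999 and 909 with flagellin. With ADP-heptose they were 1275, 1261 and 995, so that replicate 3 was the lowest of its group here and lay just below flagellin replicate 2. The log2 fold change against non-stimulated cells was 0.39 ± 0.10 (SE, adjusted p = 0.0274) and 0.50 without that library. Against flagellin the log2 difference of 0.31 did not pass (adjusted p = 0.0938), while without ADP-heptose replicate 3 it was 0.43 (adjusted p = 6.78e-05).

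ERAP2 lies next to ERAP1 on chromosome 5 and encodes the related peptidase. Its normalised read counts were 2529, 2441 and 2452 in non-stimulated cells, 2389, 2418 and 2601 with flagellin and 2512, 2453 and 2210 with ADP-heptose. The 3 groups overlapped, and the log2 fold change with ADP-heptose was -0.05 ± 0.07 (SE, adjusted p = 0.712) with a 95% interval from -0.21 to 0.11. A rise as large as that of ERAP1 was outside this interval.

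NLRC5 had normalised read counts of 139, 162 and 168 in non-stimulated cells, 152, 110 and 108 with flagellin and 127, 126 and 153 with ADP-heptose. The groups overlapped. With ADP-heptose the log2 fold change was -0.20 ± 0.17 (SE, adjusted p = 0.481), with an interval from -0.57 to 0.17, and -0.33 ± 0.17 (adjusted p = 1) with flagellin. A 2-fold rise of this activator was outside both intervals, the upper end for flagellin being 0.05. Without flagellin replicate 1, the highest library of its group, the flagellin value was -0.52 and did not pass either (adjusted p = 1).

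The 3rd library of the ADP-heptose group differed most from its replicates. The SD of its log2 differences from replicates 1 and 2 was 0.378 and 0.383, against 0.135 between those 2 and 0.167 to 0.196 within the other groups. Against the mean of replicates 1 and 2, its log2 level was higher by a median of 0.45 in the 11 other 20S core subunits and 0.53 in the 3 constitutive catalytic subunits, while the median over all genes tested was 0.01. PSMB10 was higher in it by 0.49, PSME2 by 0.45, PSMB9 by 0.43, PSME1 by 0.38 and PSMB8 by 0.32. The same difference was -0.35 for ERAP1 and -0.17 for ERAP2. Without it, PSMB8, PSMB9, PSME2 and ERAP1 still passed against non-stimulated cells.

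The exchange of subunits takes place in assembling protein, which was not measured here. At the RNA level the ratio of 2 genes within a library was read, from which library size drops out. Per exon length, PSMB8 RNA was 2.82%, 3.07% and 3.01% of PSMB5 RNA in non-stimulated cells and 3.60%, 2.99% and 2.92% with flagellin. With ADP-heptose it was 3.65%, 3.98% and 3.80%, above all other libraries. PSMB9 was 0.0928%, 0.118% and 0.104% of PSMB6 in non-stimulated cells and 0.278%, 0.421% and 0.324% with ADP-heptose. With flagellin it was 0.469%, 0.170% and 0.370%, also above every non-stimulated library. PSMB10 was 3.06%, 2.72% and 2.85% of PSMB7 in non-stimulated cells and 3.55%, 3.51% and 3.21% with ADP-heptose, all 3 above. ADP-heptose replicate 3, the highest library of its group in the normalised read counts of PSMB8 and PSMB10, was the middle one in the first ratio and the lowest in the last. Taken from the means of the log2 ratios, the ratios with ADP-heptose were 1.28-fold, 3.21-fold and 1.19-fold those of non-stimulated cells. Per merged exon length, the inducible RNA stayed under 4% of the constitutive RNA in every library. These percentages depend on the lengths used, for example 2997 bases for PSMB8 and 1765 for PSMB5. The fold changes of the ratios do not depend on them.

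PSME2 was 23.6% ± 0.674 (SD, n = 3) of PSME1 in non-stimulated cells, 26.0%, 21.2% and 22.7% with flagellin and 26.9% ± 0.966 with ADP-heptose. ERAP2 was 310%, 298% and 276% of ERAP1 in non-stimulated cells, 271%, 259% and 306% with flagellin and 211%, 208% and 238% with ADP-heptose. The ADP-heptose libraries were below all others in this ratio, and above the non-stimulated libraries in the PA28 ratio. All 5 ratios separated the ADP-heptose from the non-stimulated libraries completely, with a two-sided exact permutation p of 0.1 each, the smallest that 3 against 3 allows. Among single genes, 30.1% of those tested had all libraries of this comparison on one side, and the share over other pairs of genes was not computed. The adjusted value over 15 comparisons (5 ratios in 3 contrasts) was 0.188, so none could pass in this design. Of the flagellin ratios 1 of 5 (PSMB9 to PSMB6) was separated from the non-stimulated group.

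**Figure D2:**
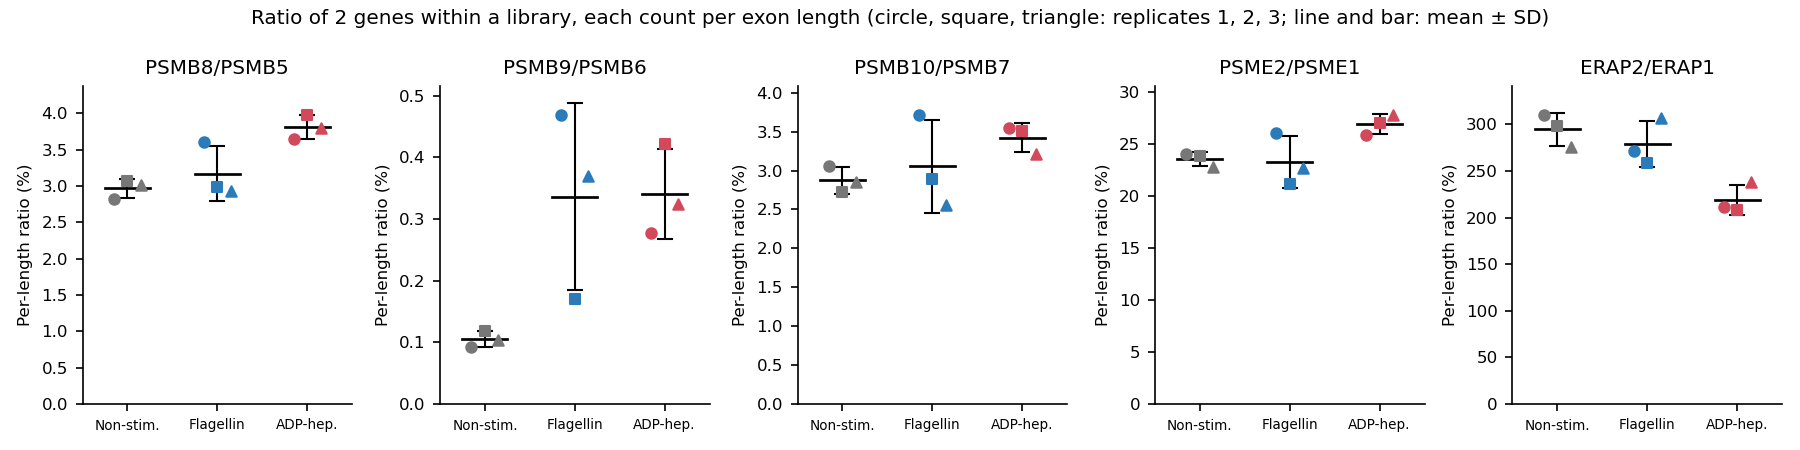
Ratio of 2 genes within each library, in percent, each count divided by exon length, for 5 pairs in non-stimulated, flagellin and ADP-heptose cells (points: libraries; line and bar: mean ± SD, n = 3). The ADP-heptose points lie above all non-stimulated points in 4 pairs and below them for ERAP2 to ERAP1.

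The rest of the proteasome was read from lists of its parts. Of the constitutive catalytic subunits 0 of 3 passed with ADP-heptose, with log2 fold changes of 0.17 (PSMB5), 0.31 (PSMB6) and 0.31 (PSMB7). Of the 11 other 20S core subunits 0 passed (median log2 fold change 0.27). Of the 19 subunits of the 19S cap 1 rose (median 0.20), where 7.48% of all genes were called higher. It was the base ATPase PSMC6 at 0.36 ± 0.08 (SE, adjusted p = 0.0128). All 33 of these genes had a log2 fold change above 0, as did 51.1% of all genes. Without ADP-heptose replicate 3 the medians of the 3 lists were 0.08, 0.09 and 0.09, with 0, 1 and 3 genes passing. In that fit 2018 of all 17966 genes tested were called higher and 1270 lower. Of 12 other activators and assembly factors none passed (median 0.04), and none of the 7 other peptidases that trim or destroy peptides in the cell did (median 0.05). With flagellin none of these 52 genes passed, where 0.368% of all genes were called higher. Against flagellin 1 of them, PSMC6, was higher with ADP-heptose, where 5.4% of all genes were called higher.

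The class I chains and peptide loading genes receive the peptides. With ADP-heptose 9 of 13 rose and none fell, where 7.48% of all genes were called higher, and their median log2 fold change was 0.60. The 5 with the highest values were the transporter subunit TAP1 at 1.51 ± 0.11 (SE, adjusted p = 1.36e-06), the heavy chains HLA-B at 1.48, HLA-F at 1.01 and HLA-E just below it, and the loading factor tapasin (TAPBP) at 1.14. Flagellin passed for none of the 13 (median 0.08). Against flagellin 7 of 13 were higher with ADP-heptose (median 0.45), where 5.4% of all genes were called higher. TAP1, which shares its upstream region with PSMB9, had normalised read counts of 303, 332 and 370 without stimulation, 480, 483 and 416 with flagellin and 951, 1039 and 875 with ADP-heptose. HLA genes resemble one another, and how reads with several matches were counted is not given in the sources used here, so their single values are uncertain.

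Of the 8 DNA-binding partners of NLRC5, 1 rose with ADP-heptose, where 7.48% of all genes were called higher. It was CREB1 at 0.52 ± 0.09 (SE, adjusted p = 0.00187), and the median of the 8 was 0.08. CREB1 was also the 1 gene of the 8 that was higher than with flagellin, at 0.40 (adjusted p = 0.0122), where 5.4% of all genes were called higher. Flagellin passed for none of the 8. Of the class II transactivator and 7 class II genes, 3 had enough counts to be tested and none passed in any comparison (median -0.25 with ADP-heptose). CIITA, the class II relative of NLRC5, was one of them with 44 to 63 counts per library.

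In the interferon and IRF route, 15 of 21 identifiers were tested. IFNAR2 is listed under 2, of which the untested one had at most 7 counts. Of the 15 tested, 6 rose with ADP-heptose (median 0.33), where 7.48% of all genes were called higher. IRF1, a factor that binds the core repeat, rose by 3.61 ± 0.09 (SE, adjusted p = 1.05e-10), from 628, 692 and 621 normalised read counts to 7603, 7427 and 8695. The receptor chains IFNAR2, IFNGR2, IFNGR1 and IFNAR1 followed at 3.02, 2.14, 1.73 and 0.73. Flagellin raised 3 of the 15, IFNGR1 by 0.55, IRF1 by 0.53 and IFNGR2 by 0.49, where 0.368% of all genes were called higher. Compared with flagellin, 6 of the 15 were higher with ADP-heptose (median 0.23), where 5.4% of all genes were called higher. They were the 6 genes that rose over non-stimulated cells, but the ADP-heptose values enter each test, which favours such an overlap. The 5 interferon ligands listed had at most 4 counts in any library, and IFNG, the interferon gamma gene, had 0 in all 9. A count of 0 allows up to 3 counts per library, and this covers counting error only. The 8 NF-kB reference targets were listed with earlier results of these data known, so their counts are descriptions only. All 8 rose with both stimuli, with a median of 4.84 for ADP-heptose and 1.68 for flagellin. ADP-heptose exceeded flagellin for all 8 (median 3.26), where 5.4% of all genes were called higher.

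Genes whose pattern over the 9 libraries was most like that of each member were found by Pearson correlation of log2 CPM among up to 12168 genes. Libraries share their group, so these values are descriptions. No member was among the 3 most alike genes of another. For PSMB9 they were PCK2, KHDRBS1 and FKBP11 (r from 0.934 to 0.957), and for PSMB8 they were a gene listed without a symbol, SEC22A and GNAI3 (0.975 to 0.979). For PSMB10 they were SMPD2, DAP3 and GPC1 (0.975 to 0.987), for PSME1 ZNF784, GLRX3 and NQO1 (0.984 to 0.990) and for PSME2 SERPINB1, CHD4 and PRPF38A (0.988 to 0.994). ERAP1 was most like NRAS, TP53BP2 and PARP14 (0.974 to 0.979), and ERAP2 most like ROR1, XPO1 and FER (0.959 to 0.968). NLRC5 had the weakest likeness, to a gene without a symbol, VPS33B and SLC47A1 (0.868 to 0.933).

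Several of the genes overlap others in the GENCODE 29 annotation of GRCh38, and whether counting used the strand is not given in the sources used here. PSMB8 (chr6:32840717-32844703) shares 618 exon bases, 20.6% of its exon length, with the antisense transcript PSMB8-AS1, and 139 with PSMB9 (chr6:32844136-32859585) on the other strand. PSMB8-AS1 had 2 to 7 counts in non-stimulated, 4 to 13 in flagellin and 17 to 30 in ADP-heptose libraries, and it shares 174 exon bases with PSMB9. Its ADP-heptose counts were above its non-stimulated ones, with which its flagellin counts overlapped. Its part in the counts of PSMB9 and PSMB8 was not tested. PSMB10 (chr16:67934502-67937087) shares 644 exon bases, 34.8%, with AC040162.1 on its own strand, which had 17 to 30, 28 to 39 and 72 to 77 counts in the non-stimulated, flagellin and ADP-heptose groups. PSME2 (chr14:24143362-24147570) shares 216 exon bases with RNF31, which had normalised read counts of 5.41 to 6.19, 6.20 to 17.2 and 10.7 to 18.3 in the same order. What these genes add to the counts of PSMB10 and PSME2 was not tested. ERAP1 (chr5:96760810-96808100) shares 299 exon bases with CAST on the other strand. CAST had normalised read counts of 6392 to 6824 in non-stimulated and 5493 to 6438 in ADP-heptose libraries, and its part was not tested. A further 252 exon bases of ERAP1 lie in the antisense transcript AC008906.1. This transcript had normalised read counts of 6.73 to 16.2 without stimulation and 12.5 to 43.6 with ADP-heptose, and its part was not tested either. PSME1 (chr14:24136158-24138967) shares 9 exon bases with EMC9, and ERAP2 (chr5:96875939-96919716) and NLRC5 (chr16:56989485-57083531) share none with another gene.

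The libraries carried the marks of an epithelial line. EPCAM had at least 30326 counts and KRT8 at least 132212 counts in every library. Of the 10 epithelial markers 9 could be tested, with log2 fold changes from -0.95 to 0.45 for ADP-heptose. Among these 9, 1 rose with ADP-heptose (KRT20, 0.40), where 7.48% of all genes were called higher. CDX1 had at most 12 counts. The summed level of the 10 epithelial markers was 323264 to 337816 normalised read counts in non-stimulated, 331446 to 344369 in flagellin and 356088 to 496412 in ADP-heptose libraries. Of 10 markers of other cell types, 9 had at most 13 counts and 3 had 0 in every library (the T cell marker CD3E, the B cell marker MS4A1 and the collagen gene COL1A2). The sum of those 9 was 2.16 to 18.6 normalised read counts in non-stimulated, 5.17 to 21.7 in flagellin and 10.7 to 12.5 in ADP-heptose libraries. COL1A1 had 437 to 1019 counts and rose with ADP-heptose (0.41, adjusted p = 0.0311), and its part in the results was not tested.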

How the data were processed

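RNA of HT-29 cells was sequenced by the study as poly(A)-enriched paired reads, and the authors aligned it with HISAT2 and deposited raw counts per gene from featureCounts, with 1 column per library. Versions, genome build, annotation and strandedness are not given in the sources used here. The 232 gene identifiers listed more than once had identical counts and were kept once. Groups came from the treatment labels. A single edgeR fit (version 4.0.16, R 4.3.3) took all 9 libraries, with TMM scaling, the default filterByExpr and the robust quasi-likelihood test, leaving 17412 genes, with calls at an adjusted p under 0.05. DESeq2 1.42.0 was an alternative. Ratios were tested by exact permutation in scipy 1.17.1. Exon lengths are the merged exons of GENCODE 29, which holds 92.9% of the identifiers. The genes, lists and motifs were chosen with earlier results of these data known. All 8 members are named, other genes by rule: in each list up to 5 that passed with the largest change (all in lists of up to 5), the 3 most like each member by correlation leaving out genes whose log2 CPM averaged under 1, and overlapping genes. CIITA, CDX1, IFNG and the markers were added after their values were seen. Same-numbered libraries did not deviate together in all pairs, so no pairing was used.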

Additional observations from a re-analysis of the deposited data

How the results depend on the processing

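With ADP-heptose against non-stimulated cells, 4 members passed. Under library totals, fits of only the 6 libraries compared, the replicate block or an added 2-fold limit, 1 member (PSMB9) passed. Leaving out single libraries gave 0 to 4, with 0 without non-stimulated replicate 1 or 3 and 2 without non-stimulated replicate 2, ADP-heptose replicate 2 or any flagellin library. For ADP-heptose against flagellin, where 1 member passed, the 6-library fit, the replicate block and the 2-fold limit gave 0, and leaving out single libraries gave 0 to 2, with 0 without each flagellin library and 2 without ADP-heptose replicate 3. The cause was not tested. Flagellin against non-stimulated cells gave 0 members under every alternative. Library totals moved the median of all genes with ADP-heptose to -0.13. Correlations of same-numbered libraries' deviations ran from -0.379 to 0.222 over 9 pairs, so the numbers were not taken to pair libraries.

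Of 408 single-member values under alternatives, 362 kept direction and side of the threshold, 33 no longer passed, 3 newly passed and 10 changed sign, all 10 where the member did not pass. Those sign changes came from single libraries left out, over which the log2 values ran from -0.094 to 0.0088 (ERAP2) for ADP-heptose against non-stimulated cells. For ADP-heptose against flagellin they ran from -0.084 to 0.020 (ERAP2) and from -0.058 to 0.65 (PSMB9). For flagellin against non-stimulated cells they ran from -0.048 to 0.014 (ERAP2), -0.036 to 0.26 (PSMB10), -0.070 to 0.015 (PSME1) and -0.098 to 0.0042 (PSME2). Among the ratios, the log2 difference with single libraries left out ran from -0.0047 to 0.15 (PSMB8/PSMB5), -0.080 to 0.19 (PSMB10/PSMB7) and -0.10 to 0.046 (PSME2/PSME1) for flagellin against non-stimulated cells, and from -0.31 to 0.42 (PSMB9/PSMB6) for ADP-heptose against flagellin. The other 11 ratio comparisons kept their sign, and summing counts per symbol left all of them as they were. Depth limits PSMB9 most, at 6 to 8 counts without stimulation.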
